A study of Mus musculus with 6 samples.

Results

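The Mu class and microsomal glutathione transferases were followed in whole spleen RNA of mice on a control or a garlic diet. The members are the 9 genes Gstm1, Gstm2, Gstm4, Gstm5, Gstm6, Gstm7, Mgst1, Mgst2 and Mgst3, grouped by gene family. They are 9 of the 18193 genes named on the array, read by 15 of its 45037 probe sets, 10 for the Mu genes and 5 for the microsomal genes, each of which carries the name of a single gene in the array annotation. The control group was 3 male C57BL/6J mice given 4% cellulose in the diet, and the garlic-fed group was 3 such mice given 4% lyophilized raw garlic powder in its place. The labels give 8 weeks as the age at the start, where the study's methods give an age range at purchase that ends there. Spleens were sampled at week 15, and both diets contained added L-cysteine. Each mouse gave 1 array. The values are MAS5 signals, which measure the brightness of labeled RNA bound to a probe set on a linear scale.

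Glutathione transferases join the thiol of glutathione to reactive, electron-poor compounds, so that these can be exported from the cell as conjugates. The Mu enzymes are soluble proteins that work as dimers. The microsomal enzymes belong to an unrelated family of membrane proteins, which also holds enzymes of leukotriene and prostaglandin synthesis. Many transferase genes respond in liver to the transcription factor Nrf2 through antioxidant response elements, and organosulfur compounds of garlic are known inducers of such enzymes in rodents. The spleen holds B and T cells, red pulp macrophages and, in the mouse, erythroblasts, the nucleated precursors of red blood cells (RBC).

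Mgst3 and Gstm5 had the highest garlic/control ratios among the members that could be tested, and no member passed the test adjusted over all probe sets. The promoters of these 2 genes are shown here because they had the most positive log2 fold changes. The windows run from 250 bases before the annotated start of the gene to 50 bases after it, on the gene's own strand. They were taken from RefSeq on build GRCm38.p6, at chr3:107895604-107895903 on the plus strand for Gstm5 and at chr1:167393792-167394091 on the minus strand for Mgst3. Capitals mark matches to TGACNNNGC, the core of the antioxidant response element, to TGANTCA, the core bound by AP-1 and NF-E2, or to AGATAA, a site type of GATA factors.
Gstm5: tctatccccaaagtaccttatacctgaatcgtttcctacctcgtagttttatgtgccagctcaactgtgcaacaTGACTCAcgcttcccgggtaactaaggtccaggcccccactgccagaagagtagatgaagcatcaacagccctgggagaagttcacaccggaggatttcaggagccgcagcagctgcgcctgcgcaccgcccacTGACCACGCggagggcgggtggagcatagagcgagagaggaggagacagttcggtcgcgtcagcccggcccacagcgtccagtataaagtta
Mgst3: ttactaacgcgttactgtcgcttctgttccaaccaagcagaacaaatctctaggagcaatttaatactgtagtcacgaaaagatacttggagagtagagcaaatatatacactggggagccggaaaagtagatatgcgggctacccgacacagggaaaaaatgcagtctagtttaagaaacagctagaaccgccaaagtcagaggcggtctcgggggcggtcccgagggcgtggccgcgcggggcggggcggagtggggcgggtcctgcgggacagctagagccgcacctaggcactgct

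The Gstm5 window held 1 match to TGACNNNGC, 42 bases before the start, and 1 match to TGANTCA, 176 bases before it, and the 2 do not overlap. The Mgst3 window held none of the 3 motifs, which says only that these letters are not in this window. All 9 members had at least 1 such window, 15 in all, and both strands were searched. TGACNNNGC was found in 3 of the 15 windows, 1 each of Gstm5, Gstm7 and Mgst1, and in 12.4% of all 32851 windows of this length. TGANTCA was found in 2 of the 15, 1 each of Gstm5 and Mgst2, and in 7.81% of all windows. AGATAA was found in 1 of the 15, of Gstm7, and in 11.2% of all windows.

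In the RefSeq annotation of GRCm38.p6 the Mu genes lie side by side on chromosome 3, in the order Gstm5, Gstm7, Gstm6, Gstm3, Gstm2, Gstm1, Gstm4, with no other protein-coding gene between them. Mgst2 lies elsewhere on chromosome 3, Mgst1 on chromosome 6 and Mgst3 on chromosome 1. The Mu genes are close copies of each other, so a probe set of one can also bind RNA of another. The name endings of Affymetrix probe sets bear on this. Those ending in _x_at, 2 of the 4 for Gstm1, were flagged at design as able to bind other transcripts, so values of Gstm1 from them are uncertain.

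Of the 15 probe sets, 11 were bright enough to be tested and 4 were not. Those left out were the only one of Gstm6 and the dimmer one each of Gstm7, Mgst1 and Mgst3. The floor was a signal of 23.5, the 20th percentile of all signals, and lower values were raised to it ahead of the log2 step. The test was limma over the 27022 probe sets whose mean log2 signal lay in the upper part, past the 40th percentile, with Benjamini-Hochberg adjustment. None of the 11 passed at an adjusted p under 0.05, against 0.226% of all probe sets that were higher and 0.0111% that were lower in garlic-fed mice. At an unadjusted p under 0.05, 2 of the 11 were higher (5.58% of all probe sets) and none was lower (5.44% of all). By the study's criterion, a ratio above 1.8 with an unadjusted p under 0.05, 1 of the 11 was higher (0.921% of all) and none was lower by the mirrored criterion (0.596% of all). The groups did not overlap, with garlic-fed mice on top, in 2 of the 11 probe sets, against 7.52% of all, and with control mice on top in 1, against 9.29% of all.

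**Figure D1:**
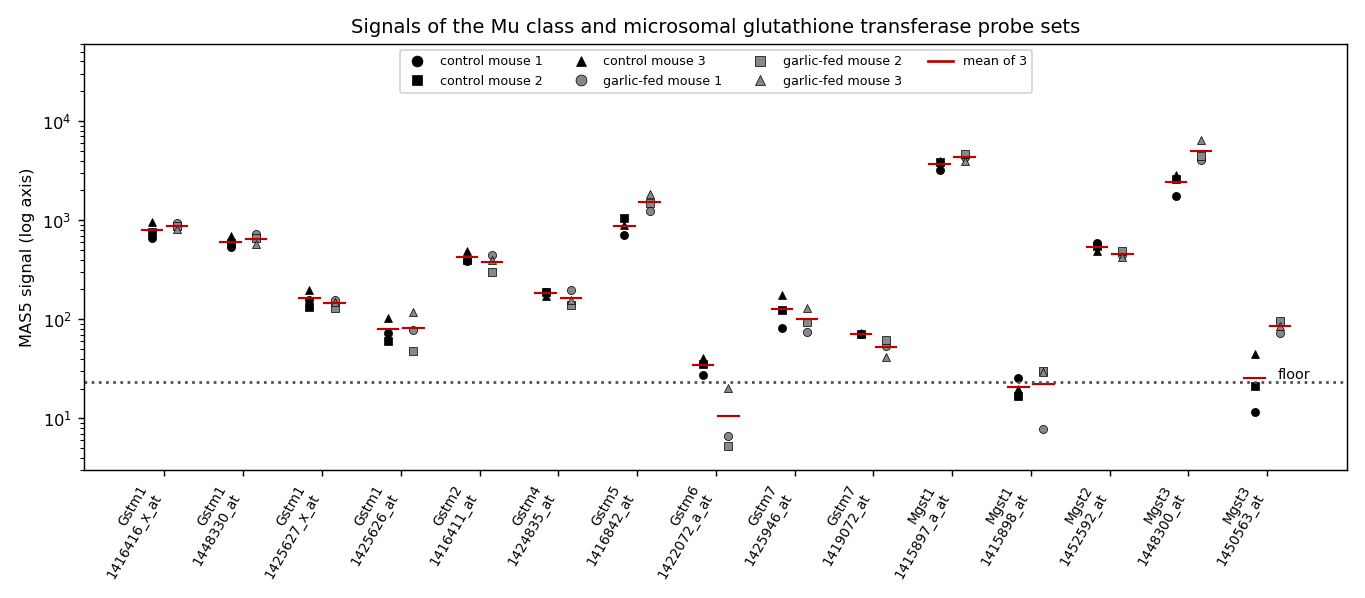
MAS5 signal, on a log axis, of all 15 probe sets of the 9 genes in each mouse. Black symbols are the 3 control mice, gray symbols the 3 garlic-fed mice, red bars their means, and the dotted line the floor of 23.5. The garlic-fed mice lie wholly above the control mice in both Mgst3 probe sets and in Gstm5, and wholly below in Mgst2, Gstm6 and the dimmer Gstm7 probe set.

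Mgst3 encodes a microsomal transferase that also reduces lipid hydroperoxides. Its main probe set, 1448300_at, had signals of 1762.9, 2617.7 and 2849.9 in control mice 1 to 3, against 4006.2, 4419.1 and 6474.6 in garlic-fed mice 1 to 3. The lowest garlic-fed mouse lay above the highest control mouse, control mouse 1 was the lowest of all and garlic-fed mouse 3 the highest. The means were 2410 ± 572 (SD, n = 3) and 4967 ± 1322 (SD, n = 3). This gave a 2.06-fold difference, with a 95% interval of 1.5 to 2.82 (log2 fold change 1.04, standard error 0.20, unadjusted p = 0.000464 and adjusted p = 0.0826 from limma). It was the 1 member to meet the study's criterion as applied here, with the unadjusted p from limma. Mgst3 did not meet it without control mouse 1 or without garlic-fed mouse 3, when its log2 fold change was 0.83 in either case. It did not pass the adjusted threshold as tested, but did so with each array centred on its median (log2 fold change 1.12, adjusted p = 0.0488 from limma). It also did so with mice of the same number treated as a block, though the labels give no pairing. Over all alternatives its adjusted p lay between 0.00282 and 0.463.

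The second Mgst3 probe set, 1450563_at, was dim. Its signals were 11.6, 21 and 44.3 in control mice, against 72.3, 96.5 and 85.8 in garlic-fed mice. Again the groups did not overlap, but 2 control signals lay under the floor, which would set the size of any fold, and none is printed. It was left out by the filter on dim probe sets, and without that filter its adjusted p was 0.337 from limma.

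Mgst1 encodes the most studied microsomal transferase, an enzyme of the endoplasmic reticulum and the outer mitochondrial membrane that also acts as a peroxidase. Its probe set 1415897_a_at had signals of 3208.5, 3823.5 and 3966.7 in control mice, against 4356.6, 4608 and 3929.2 in garlic-fed mice. The groups overlapped, since garlic-fed mouse 3 lay under control mouse 3. The means were 3666 ± 403 (SD, n = 3) and 4298 ± 343 (SD, n = 3). The ratio was 1.17-fold, with a 95% interval of 0.999 to 1.38 (adjusted p = 0.456 from limma). This interval leaves out a difference of the size that the study's criterion asks for. The other Mgst1 probe set, 1415898_at, was at or near the floor, with signals of 16.8 to 25.8 in control mice, against 7.8 to 30.2 in garlic-fed mice, and carries no information on the direction.

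Mgst2 encodes a microsomal transferase that can also form leukotriene C4. Its signals on 1452592_at were 592.1, 543 and 488.8 in control mice, against 445.1, 488.4 and 422.9 in garlic-fed mice. The garlic-fed mice lay under the control mice, but garlic-fed mouse 2 and control mouse 3 were nearly level. The ratio was 0.836, with a 95% interval of 0.679 to 1.03 (limma log2 fold change -0.26 with a standard error of 0.13, adjusted p = 0.531). Of the 3 microsomal genes, Mgst3 and Mgst1 had positive log2 fold changes and Mgst2 a negative one, and neither Mgst1 nor Mgst2 passed the test.

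Gstm5 encodes the Mu 5 subunit. On 1416842_at its signals were 703.7, 1043.6 and 899.4 in control mice, against 1228.4, 1492.8 and 1846.5 in garlic-fed mice. As for Mgst3, control mouse 1 was the lowest, garlic-fed mouse 3 the highest, and the groups did not overlap. The means were 882 ± 171 (SD, n = 3) and 1523 ± 310 (SD, n = 3). The difference was 1.72-fold, with a 95% interval of 1.31 to 2.27 (log2 fold change 0.79, standard error 0.18, unadjusted p = 0.00128 and adjusted p = 0.125 from limma). It thus passed neither the adjusted threshold nor the ratio of 1.8. The paper, in contrast, reports Gstm5, like Mgst3, as induced by garlic beyond that ratio. The ratio of the Gstm5 mean signals was 1.73, also under 1.8. The study's own software was not rerun, and the cause of this disagreement was not tested. The log2 fold change of Gstm5 did pass that ratio with median centring (0.86), without control mouse 2 (0.92) and without garlic-fed mouse 1 (0.93).

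Gstm1, a main Mu subunit of mouse liver, was read by 4 probe sets. On 1448330_at, which is not flagged for binding other transcripts, the signals were 533, 583.5 and 688.4 in control mice, against 728, 659.9 and 569.9 in garlic-fed mice, and the groups overlapped. The ratio there was 1.09, with a 95% interval of 0.867 to 1.36. The brightest, 1416416_x_at, gave 792 ± 155 (SD, n = 3) and 873 ± 64.2 (SD, n = 3), a ratio of 1.11 with a 95% interval of 0.884 to 1.40 (adjusted p = 0.772 from limma). The other 2 were dimmer, 1425627_x_at with a log2 fold change of -0.15 and 1425626_at with one of -0.02, so the 4 probe sets did not share a direction. Their adjusted p lay between 0.772 and 0.991.

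Gstm2 is the Mu subunit known from muscle. Its signals on 1416411_at were 383.9, 394.6 and 486.2 in control mice, against 448.2, 299.6 and 396.7 in garlic-fed mice, a ratio of 0.898 with a 95% interval of 0.679 to 1.19 (adjusted p = 0.819 from limma). Gstm4, on 1424835_at, had signals of 190.2, 187.8 and 173.2 in control mice, against 198.2, 138.6 and 154.9 in garlic-fed mice, a ratio of 0.883 with a 95% interval of 0.645 to 1.21 (adjusted p = 0.813). In both genes the groups overlapped, and garlic-fed mouse 2 was the lowest of the 6 mice.

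Gstm7 and Gstm6 were dim. The brighter Gstm7 probe set, 1425946_at, ranged from 81.4 to 177.7 in control mice and from 73.7 to 131.4 in garlic-fed mice. The groups overlapped, and the log2 fold change was -0.32 with a standard error of 0.34 (limma, adjusted p = 0.795). The dimmer one, 1419072_at, had signals of 71.5, 70.9 and 72.1 in control mice, against 53.2, 62.1 and 41.2 in garlic-fed mice. Its groups did not overlap. It lay under the filter, and without the filter its adjusted p was 0.577 from limma. Gstm6, on 1422072_a_at, had signals of 27.6, 35.2 and 40.7 in control mice, against 6.6, 5.2 and 20.2 in garlic-fed mice. All 3 garlic-fed signals were under the floor and the control signals were only just over it, and a fold that the floor would set is not printed.

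**Figure D2:**
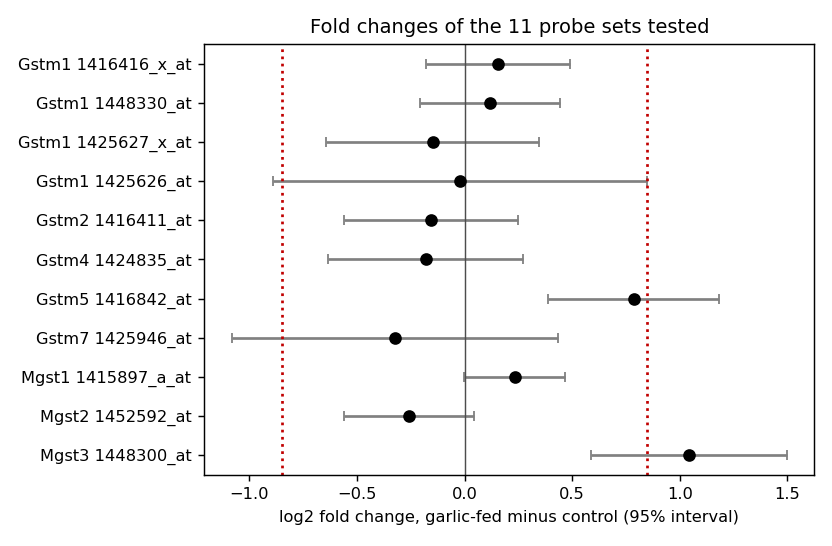
Log2 fold change, garlic-fed minus control, of the 11 probe sets tested, with 95% intervals from limma. The dotted red lines mark a ratio of 1.8 in either direction, and Mgst3 and Gstm5 are the 2 whose intervals lie wholly above 0, at 1.04 and 0.79.

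By gene, with the brightest probe set standing for each, 8 members were tested. Their median log2 fold change was -0.00021, beside -0.028 over all 12262 genes tested, and 4 were positive and 4 negative. The median was -0.16 over the 5 Mu genes tested and 0.23 over the 3 microsomal genes. The members ranged from -0.32 for Gstm7 to 1.04 for Mgst3 around a median near 0. Gstm5 was also compared with the other Mu members tested. Its log2 signal on each array was set against the mean of Gstm1, Gstm2, Gstm4 and Gstm7. Relative to the control mean this difference was -0.08, 0.28 and -0.20 in control mice, against 0.56, 1.05 and 1.12 in garlic-fed mice. The shift was 0.91, without overlap (two-sided exact permutation p = 0.1, the smallest that 3 mice against 3 can give).

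Mgst3 shifted by 0.81 against Mgst1 and by 1.3 against Mgst2 on the same scale, with p = 0.1 each by that exact permutation test. Against Gstm5 its shift was 0.26 and the groups overlapped (exact permutation p = 0.2). These 4 comparisons were chosen after the values were seen, and adjusted over the 4 the p-values were 0.133 for the former ones and 0.2 for the last. Over the 6 arrays, the log2 signals of Mgst3 and Gstm5 had a Pearson correlation of 0.97, and of 0.90 with the group means removed. The latter was not particular to this pair. Mgst3 and Gstm7 on 1425946_at, whose log2 fold change was negative, had 0.12 over the 6 arrays and 0.95 with the group means removed. These values describe 6 arrays that also share their scaling, and no p is given.

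The 3 genes most like Mgst3 over the 6 arrays, among 12254 other genes tested, were Cldn13 (r = 0.998), Cenpk (r = 0.997) and Rhd (r = 0.997). Cldn13 encodes a claudin, Cenpk a protein of the kinetochore and Rhd a Rhesus blood group protein. For Mgst1 they were Cped1 (r = 0.998), Fam8a1 (r = 0.996) and Igha (r = 0.993). With 6 arrays such values come easily, as 483 genes had r over 0.9 with Mgst3 and 174 with Mgst1.

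Markers of several cell types also differed between the groups. In whole spleen, a larger share of a cell type and more RNA per cell cannot be told apart. The spleen label was borne out by bright B cell, T cell and red pulp macrophage genes, none of which was under the filter on dim probe sets. Of the erythroblast genes listed, 9 were analysed here and all were bright enough to test. All 9 had positive log2 fold changes with a median of 0.82, and 2 of them, Kel and Ank1, passed the adjusted test, against 0.343% of all genes that were higher past it. Of 16 alternatives Kel lost its call in 6 and Ank1 in 5, and both lost it when control mouse 1 or control mouse 2 was left out, with no filter, with no trend of variance and with the methods' test. Several of these genes are ones the study picked on these samples. Their summed signal was 30143 to 37191 in control mice, against 43396 to 59714 in garlic-fed mice, without overlap. By mean log2 signal control mouse 1 was the lowest and garlic-fed mouse 3 the highest. No gene of the other marker lists passed the adjusted test. Their median log2 fold change was -0.16 for B cells, -0.19 for T cells, 0.15 for red pulp macrophages, 0.51 for neutrophils, 0.93 for granulocyte precursors, 0.02 for endothelium and stroma, 0.81 for fat tissue and -4.35 for pancreas.

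The correlation with the mean log2 signal of these 9 genes over the 6 arrays was 0.99 for Mgst3, 0.96 for Gstm5, 0.68 for Mgst1 and -0.92 for Mgst2, and 486 of 12262 genes exceeded 0.9. The part of erythroblast RNA in the differences of Mgst3 and Gstm5 was not tested. Of the granulocyte precursor genes, Mpo and Prtn3 are among those the study named as higher on these samples, so this list is not independent of them. The 4 granulocyte precursor genes had a summed signal of 682 to 1044 in control mice, against 1602 to 1729 in garlic-fed mice. The correlation with their mean log2 signal was 0.96 for Mgst3, 0.95 for Gstm5, 0.79 for Mgst1 and -0.90 for Mgst2. How many of all genes reach such values with this list was not counted, nor were strongly negative values with either list. The part of granulocyte precursor RNA in the differences of these members was not tested.

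**Figure D3:**
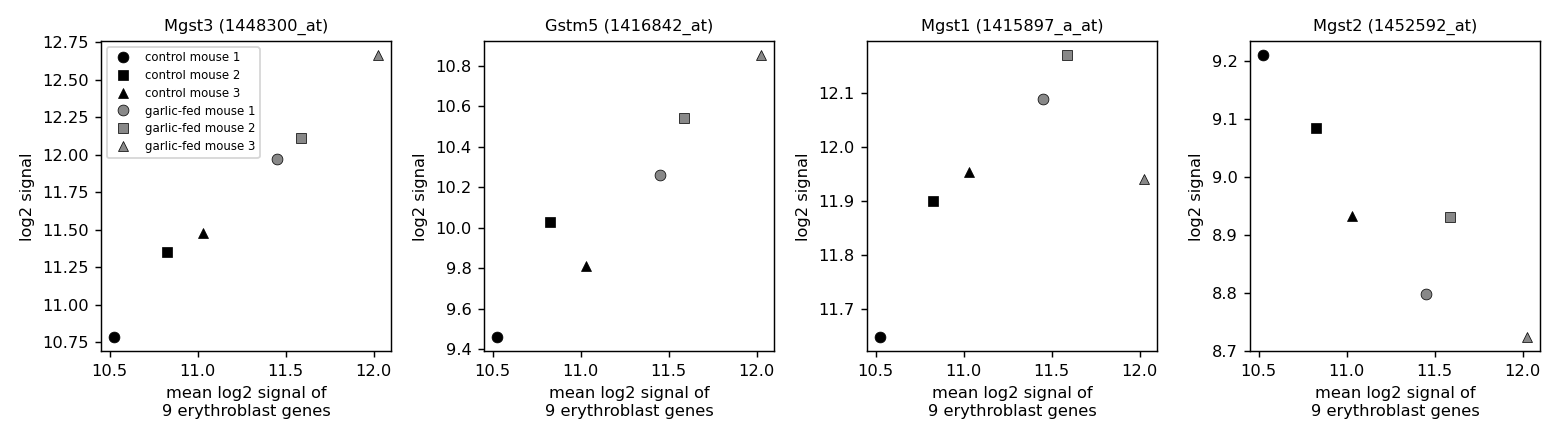
Log2 signal of Mgst3, Gstm5, Mgst1 and Mgst2 in each mouse against the mean log2 signal of 9 erythroblast genes on the same array. Black symbols are control mice and gray symbols garlic-fed mice. Mgst3 and Gstm5 are lowest in control mouse 1 and highest in garlic-fed mouse 3 on both axes, while Mgst2 runs the other way.

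Pancreas and fat tissue signals differed between single mice. The summed signal of 9 pancreatic genes was 16395 to 118445 in control mice, against 2097 to 31525 in garlic-fed mice, and that of 6 fat tissue genes 2491 to 3789 and 2295 to 9207. Without the array of each group that held the most pancreatic signal, control mouse 1 and garlic-fed mouse 2, the log2 fold change was 0.90 for Mgst3 (adjusted p = 0.347) and 0.64 for Gstm5 (adjusted p = 0.671 from limma). For Mgst1 it was then 0.09, down from 0.23. The part of fat tissue RNA was not tested.

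Transferases outside the members, of the other classes and with the Mu gene Gstm3 among them, showed no call at an adjusted p under 0.05. Of 16 listed genes, 14 were on the array and 11 were tested. None passed the adjusted test. At an unadjusted p under 0.05 none was higher (6.89% of all genes) and 1 was lower (6.24% of all genes), and their median log2 fold change was -0.043. The brightest was Gstp1, the Pi class enzyme, with 9490 ± 562 (SD, n = 3) in control mice, against 9346 ± 658 (SD, n = 3) in garlic-fed mice (limma log2 fold change -0.02 with a standard error of 0.08, adjusted p = 0.950). As it has near-identical copies, its signal may include theirs. Gsto1, of the Omega class, had a log2 fold change of -0.16, with a standard error of 0.14 (limma, adjusted p = 0.732). Gstt3, of the Theta class, was the 1 lower gene, with signals of 163.1, 194.9 and 214.9 in control mice, against 138.3, 133.8 and 127.6 in garlic-fed mice (log2 fold change -0.51, adjusted p = 0.386), and was named after its value was seen.

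Gstm3, counted in that list, had a log2 fold change of 0.12 on 1427474_s_at (standard error 0.21, adjusted p = 0.888 from limma).

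Genes of eicosanoid synthesis, of which Alox5ap, Ltc4s and Ptges belong to the membrane protein family of the microsomal transferases, showed no call. Of 8 genes of leukotriene and prostaglandin synthesis, 7 were tested, none passed at an adjusted or an unadjusted p under 0.05, and their median log2 fold change was -0.035. Lta4h, which encodes leukotriene A4 hydrolase, had a log2 fold change of 0.01, with a standard error of 0.10 (limma, adjusted p = 0.986). Alox5ap, the gene of the 5-lipoxygenase activating protein and a member of the same membrane protein family as Mgst1, had one of -0.09, with a standard error of 0.12 (limma, adjusted p = 0.842).

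The later steps of conjugate handling also showed no call. Of 16 genes of conjugate export and of the mercapturate steps that trim exported conjugates, 13 were on the array and 8 were tested. None passed at an adjusted or an unadjusted p under 0.05, and the median log2 fold change was -0.064. Ggt5, which encodes a gamma-glutamyl transferase, had a log2 fold change of -0.19, with a standard error of 0.15 (limma, adjusted p = 0.703). Abcc1, which encodes an export pump for glutathione conjugates, had one of -0.12, with a standard error of 0.12 (limma, adjusted p = 0.771).

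Among 10 genes of glutathione supply and Nrf2 control, all tested, Gclc rose past the adjusted threshold, none was lower past it, and the median log2 fold change was 0.25. At an unadjusted p under 0.05, 4 were higher (6.89% of all genes) and 1 was lower (6.24% of all genes). Gclc encodes the catalytic subunit of the enzyme that makes the glutathione precursor. Its signals were 1511.7, 1604.6 and 1625.6 in control mice, against 2645.4, 2792.1 and 2188.8 in garlic-fed mice (limma log2 fold change 0.68 with a standard error of 0.11, adjusted p = 0.0476). Here garlic-fed mouse 3 was the lowest of its group, whereas for Mgst3 and Gstm5 it was the highest. The Gclc call was lost in 10 of 16 alternatives, among them quantile normalization, the methods' test and 5 of the 6 fits without 1 mouse, with an adjusted p of 0.0208 to 0.418 over all 16. Its log2 fold change lay between 0.58 and 0.78.

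The size of the Mgst3 and Gstm5 differences depended on single mice. Over the 6 fits that each left out 1 mouse, the log2 fold change of Mgst3 lay between 0.83 (without control mouse 1) and 1.18 (without garlic-fed mouse 1), and that of Gstm5 between 0.63 and 0.93 for the same mice. Neither passed the adjusted threshold in any of these 6 fits.

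**Figure D4:**
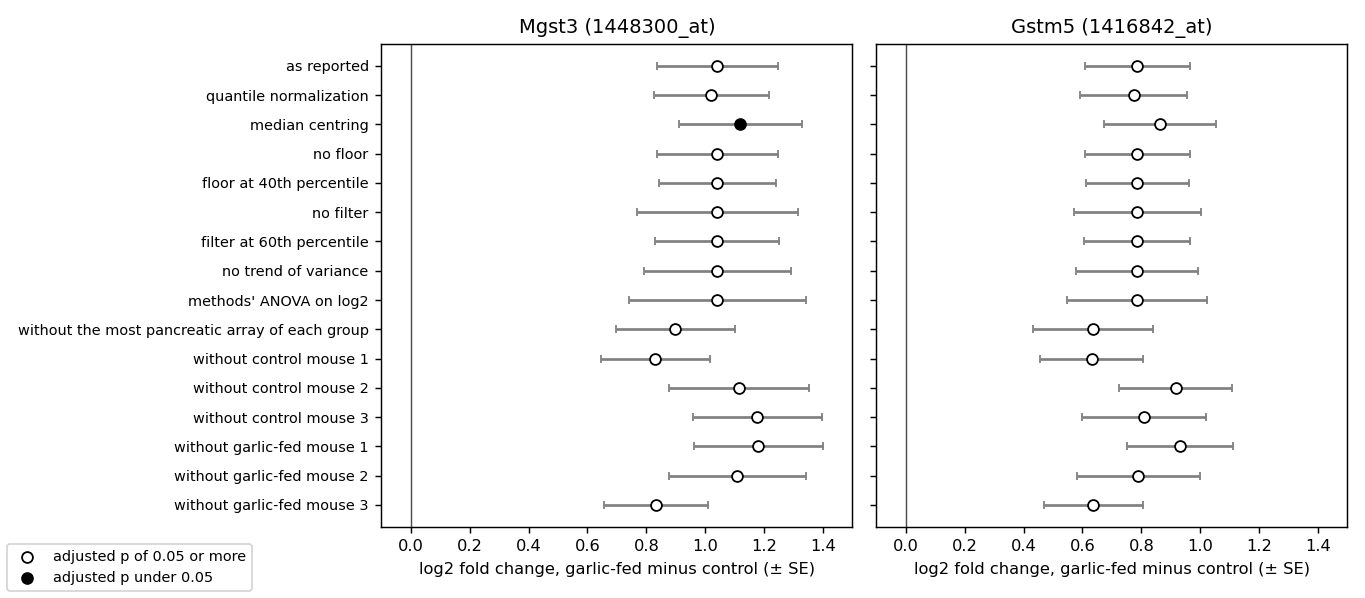
Log2 fold change of Mgst3 and Gstm5, with standard errors, as reported and under 15 other settings of the processing. Filled symbols mark an adjusted p under 0.05, which Mgst3 reached with median centring and Gstm5 under none of these settings. The replicate block is not drawn, and under it both genes had an adjusted p under 0.05 (0.0028 for Mgst3 and 0.0208 for Gstm5, from limma). All values are positive, and only the scaling settings could have changed the sign.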

How the data were processed

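Spleen RNA of 3 control and 3 garlic-fed mice was measured on Affymetrix mouse genome arrays. The deposited values are intensity values, MAS5 signals computed by the authors. The MAS5 version is not given in the sources used here. The mean of each array, with 2% trimmed at each end, was 500, as read from the values.

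From these, 64 array control probe sets were dropped, leaving 45037, of which 34945 have 1 gene name, 932 several and 9160 none in the annotation used. By gene identifier, 34741 of the 34945 matched the mouse reference. The floor was 23.5 and the filter a mean log2 signal of 6.08. Garlic-fed and control mice were set against each other by lmFit and eBayes with a trend, from limma 3.58.1 (R 4.3.3), with adjustment over 27022 probe sets. The one-way ANOVA of the study's methods was an alternative. Figures used matplotlib 3.10.9 in Python 3.11.15. A simulation with 27022 probe sets recovered 55.8% of the changes set at a log2 fold change of 1. It recovered 72% of those set at 1.5 and 88% of those set at 2. Of its 137 calls, 4 were false. Changes near the size of that of Mgst3 can thus be missed. A gene that did not pass is not shown to be unchanged.

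Members, lists and motifs were chosen with earlier results of these data known. All members are named. Of other lists, up to 3 genes past the adjusted threshold are named, or else the 2 brightest. A gene is represented by its brightest probe set, and 14 of 110 listed genes were not analysed here. Precision is limited by the number of arrays. The limma p-values weigh a difference against the spread between these mice, pulled toward a trend fitted over all probe sets tested. With the methods' ANOVA, which uses each probe set's own spread, the unadjusted p was 0.0257 for Mgst3 and 0.0296 for Gstm5. Motif shares are per window. Alternatives were the scaling, floor, filter, variance trend, test, replicate block, arrays left out and averaging over the probe sets of each gene.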

Additional observations from a re-analysis of the deposited data

How the results depend on the processing

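The log2 fold changes of Mgst3 and Gstm5 were positive under all 17 alternatives, from 0.83 to 1.18 and from 0.63 to 0.93. Only the scaling settings could have changed this sign. The floor, filter, variance trend, test, replicate block and averaging over probe sets left both values as reported. Since the groups do not overlap in either gene, leaving mice out cannot turn the sign. The count of member probe sets higher at an adjusted p under 0.05, 0 as reported, became 1 with median centring (Mgst3) and 2 with the replicate block, and stayed 0 without single mice. By the study's criterion the count of higher member probe sets, 1 as reported, was 2 with median centring (Mgst3 and Gstm5) and 2 without the filter (both of Mgst3), and lay between 0 and 2 without single mice, with 0 without control mouse 1 or garlic-fed mouse 3. Without the filter, 2 members, Gstm6 and Mgst2, were lower at an unadjusted p under 0.05, where 0 were as reported. In these counts without the filter, the dim Mgst3 probe set had 2 control signals raised to the floor and Gstm6 had 3 garlic-fed ones. Their folds are thus set by the floor. The share of all probe sets by the study's criterion or at an unadjusted p was counted only as reported, not for any alternative. With median centring the median log2 fold change of all probe sets tested was 0.045, against -0.033 as reported. With the filter at the 60th percentile Gstm4 and Gstm7, both with negative log2 fold changes, dropped out. The median of the members left, whose log2 fold changes did not change, was 0.19. Without single mice the median of the members lay between -0.06 and 0.12. The direction changed for the dim Gstm1 probe set 1425626_at with quantile normalization (0.045), median centring (0.057), the floor at the 40th percentile (0.092), the most pancreatic arrays left out (0.29), and without control mouse 3 (0.20) or garlic-fed mouse 2 (0.32), with a range of -0.34 to 0.32 without single mice. It changed for Gstm2 on 1416411_at without garlic-fed mouse 2 (0.0085), with a range of -0.28 to 0.0085.

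Over all probe sets, 61 higher and 3 lower calls as reported became 147 higher with median centring, 4 and 7 without the filter, 8 and 28 without the most pancreatic arrays, and 0 and 0 without the trend of variance or with the methods' ANOVA. With the floor at the 40th percentile 6 were lower. Without single mice, higher calls lay between 0 and 103 and lower calls between 0 and 33. The cause of these shifts was not tested. With the replicate block, 270 were higher and 25 lower, Mgst3 had an adjusted p of 0.0028 and Gstm5 one of 0.0208 from limma. The labels give no pairing of mice. The deviations of mice with the same number correlated at 0.00064, -0.18 and 0.078, and those of mice with different numbers between -0.15 and 0.16. So few values cannot show whether mice with the same number share more than the number.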
